A study of Mus musculus with 8 samples.

Results

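Erythroid lineage genes were followed in sorted dendritic cell (DC) progenitors of obese and lean mice. They comprised 9 of the 16119 genes in the table, found by matching its Ensembl identifiers to the symbols Gata1, Klf1, Epor, Alas2, Hba-a1, Hbb-bs, Car1, Car2 and Slc4a1 in GENCODE vM21. All 9 had a row and all 9 passed the filter on low counts. None of them was called between the diets (edgeR, 0 of 9, against 0.423% of all genes tested). Every one was highest in the same library, HFD replicate 1, as were 26.5% of all genes tested. Their levels there were 3.98 (Hba-a1) to 13.4 (Epor) times the median of the other 7 libraries. Without that library the fitted log2 differences ran from -0.29 (Gata1) to 0.99 (Epor), with 5 genes higher and 4 lower in HFD. As a plain difference of mean log2 CPM the split was also 5 and 4 with TMM scaling, which allows for differences in composition, and 8 and 1 with libraries scaled by their size alone, where the median difference of all genes was 0.27 in place of 0.03.

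Red cells arise in the bone marrow (BM) from progenitors shared with megakaryocytes. The transcription factors Gata1 and Klf1 start the programme, erythropoietin acts through its receptor Epor to keep the precursors alive, and maturing cells fill with hemoglobin, made of alpha and beta globin chains around heme. Late precursors also make carbonic anhydrases and a large amount of the anion exchanger Slc4a1 (band 3), which move carbon dioxide and bicarbonate. DC progenitors belong to the myeloid branch, and the erythroid programme is not part of their known fate.

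The cells were common DC progenitors (CDPs), sorted from BM as Lin-, c-kit int, Sca1 lo, CD115+ and Flt3+, about 50000 per library, with 4 libraries per diet. HFD mice were C57BL/6 (C57BL/6J in the study's methods) with the genotype label DIO (diet-induced obesity), kept for 16 weeks on a diet with 60 kcal% fat. CF mice were C57BL/6 labelled DIO-Control, an age-matched group on 10 kcal% fat, and both groups were males by the study's methods. Red cells were lysed with ACK buffer and progenitors were enriched with a kit before sorting, and the lineage cocktail and Sca1 antibody carried the same fluorophore, FITC. The replicates were isolated in parallel. Since no source used here ties a library to an animal, p-values measure only the spread between libraries, and in such bulk RNA a larger share of erythroid cells and more erythroid RNA per cell cannot be told apart.

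The libraries held 28203651 to 48409689 counts, of which protein-coding genes received 11819701 to 15164732. Of 15837 genes tested with edgeR, 67 (0.423%) had an adjusted p below 0.05, all lower in HFD. HFD replicate 1 stood apart in markers of several cell types. All 14 neutrophil genes tested and all 11 megakaryocyte genes tested were highest there, while Flt3, a receptor of the sort gate, was at 88.8 CPM (counts scaled to the size of the library) against 227 to 378 CPM in the other 7 libraries. The remaining sort receptors Csf1r (CD115) and Kit were at 93.6 and 45.6 CPM there, within the range of the others. Results are therefore given with and without this library.

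Short promoter sequences were available from RefSeq (GRCm38.p6) for 6 of the 9 genes, namely Epor, Klf1, Gata1, Hba-a1, Hbb-bs and Alas2, each from 250 bases before to 50 after the start. They were searched on both strands for AGATAA, a form of the site bound by GATA factors, and for CCNCNCCC, a form of the CACC box bound by Klf1, where neighbouring matches may overlap one another. Epor, Hbb-bs and Alas2 held both motifs, and Gata1 held the CACC form alone. Among all 32851 promoters of the same length, 11.2% held the GATA form, 49.5% the CACC form and 3.45% both. The 3 promoters with both motifs are shown because they belong to the receptor, a globin and the heme enzyme, with the matches in capitals. They lie at chr9:21963527-21963826 on the minus strand for Epor, at chr7:103827879-103828178 on the minus strand for Hbb-bs and at chrX:150547167-150547466 on the plus strand for Alas2.
Epor: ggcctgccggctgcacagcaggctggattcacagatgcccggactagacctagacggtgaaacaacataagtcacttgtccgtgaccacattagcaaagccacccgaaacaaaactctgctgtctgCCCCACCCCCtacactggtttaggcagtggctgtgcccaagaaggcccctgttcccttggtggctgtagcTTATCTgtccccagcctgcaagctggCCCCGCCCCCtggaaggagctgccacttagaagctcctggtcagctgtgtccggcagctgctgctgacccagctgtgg
Hbb-bs: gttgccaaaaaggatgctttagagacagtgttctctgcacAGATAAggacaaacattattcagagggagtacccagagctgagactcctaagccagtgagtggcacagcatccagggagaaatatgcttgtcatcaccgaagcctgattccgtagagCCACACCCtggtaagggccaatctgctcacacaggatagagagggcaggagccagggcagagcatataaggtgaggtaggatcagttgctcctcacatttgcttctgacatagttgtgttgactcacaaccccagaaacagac
Alas2: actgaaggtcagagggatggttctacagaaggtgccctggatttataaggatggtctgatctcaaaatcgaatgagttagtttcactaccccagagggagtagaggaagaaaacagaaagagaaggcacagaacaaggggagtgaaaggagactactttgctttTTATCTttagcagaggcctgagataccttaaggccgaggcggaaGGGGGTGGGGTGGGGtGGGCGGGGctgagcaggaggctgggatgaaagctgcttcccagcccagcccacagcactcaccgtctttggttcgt
In Epor the capitals TTATCT, the GATA form read on the opposite strand, span -54 to -49 from the start, between CACC matches at -124 to -115 and -28 to -19. In Hbb-bs the GATA form lies farther out, at -210 to -205, with a CACC match at -93 to -86. In Alas2 both motifs are read on the opposite strand, the GATA form at -86 to -81 and the CACC matches between -42 and -19. A match describes letters in the sequence, and binding was not measured.

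The 2 transcription factors were scarce in every library but HFD replicate 1. Gata1, on chromosome X of GRCm38 from 7959260 to 7978071, which directs both erythroid and megakaryocyte genes, was at 12.5, 2.89, 1.02 and 0.801 CPM in HFD replicates 1 to 4. In CF it was at 0.853, 2.23, 2.05 and 2.52 CPM. HFD replicates 3 and 4 were thus near CF replicate 1, below the other CF libraries, and the diets overlapped. HFD exceeded CF by a log2 fold change of 1.16 (SE 0.84, 95% interval -0.76 to 3.09; edgeR adjusted p = 0.81), and an exact two-sided permutation test gave p = 0.71. Leaving out HFD replicate 1 gave -0.29 (edgeR adjusted p = 0.83). Klf1, on chromosome 8 from 84901928 to 84905291, the factor that activates adult beta globin, was at 18.9, 2.86, 1.23 and 2.16 CPM in HFD. In CF it was at 1.32, 2.86, 2.87 and 2.00 CPM. All libraries but HFD replicate 1 fell within a 2.32-fold range, with both diets spread over it. The log2 fold change was 1.47 (SE 0.82, 95% interval -0.41 to 3.35; edgeR adjusted p = 0.74; exact permutation p = 0.60) and without HFD replicate 1 it was -0.12 (edgeR adjusted p = 0.91).

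Epor, the receptor on chromosome 9 from 21958897 to 21963506, showed the largest fitted difference of the 9 genes from the lowest counts. It was at 9.34, 2.55, 0.682 and 0.849 CPM in HFD and at 0.698, 0.509, 1.13 and 0.390 CPM in CF. HFD replicates 1 and 2 were above all CF libraries, and HFD replicates 3 and 4 lay among them. The counts behind these levels ran from 15 to 36 in 6 of the libraries, and reached 81 in HFD replicate 2 and 291 in HFD replicate 1. Epor had a log2 fold change of 2.29 (SE 0.85, 95% interval 0.35 to 4.23), with an unadjusted p of 0.026 and an adjusted p of 0.44 in edgeR, and the exact permutation test gave p = 0.17. Across all genes, 3.22% were higher in HFD at an unadjusted p below 0.05, and Epor was the single member among them. Leaving out HFD replicate 1 gave 0.99 (95% interval -0.27 to 2.24; edgeR adjusted p = 0.45).

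Alas2, on chromosome X from 150547375 to 150570638, makes the first intermediate of heme in red cell precursors. It was at 54.6, 13.1, 10.7 and 16.2 CPM in HFD and at 9.87, 15.7, 15.6 and 10.4 CPM in CF. Outside HFD replicate 1 it was the steadiest member, with a 1.64-fold range over 7 libraries in which the diets overlapped. The log2 fold change was 0.87 (SE 0.51, 95% interval -0.29 to 2.04; edgeR adjusted p = 0.75; exact permutation p = 0.40), and 0.05 without HFD replicate 1 (edgeR adjusted p = 0.94). Its exons share 311 bases with the DNA repair gene Apex2 on the opposite strand, and no source used here says whether counting used the strand. Apex2 was at 5.65 to 12.5 CPM and was highest in HFD replicate 2, where Alas2 was not high.

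The globins followed Alas2 closely. Hba-a1, on chromosome 11 from 32283511 to 32284465, codes for the adult alpha chain and was at 54.8, 12.9, 13.8 and 19.6 CPM in HFD against 11.2, 17.0, 17.8 and 11.0 CPM in CF. Hbb-bs, on chromosome 7 from 103826534 to 103828096, codes for an adult beta chain and was at 76.3, 17.5, 17.5 and 28.5 CPM in HFD. In CF, Hbb-bs was at 15.9, 26.1, 24.9 and 18.1 CPM. In both genes HFD replicate 4 came next after replicate 1, followed by CF replicates 2 and 3, so the diets overlapped. The log2 fold change of Hba-a1 was 0.82 (SE 0.47, 95% interval -0.25 to 1.90; edgeR adjusted p = 0.75; exact permutation p = 0.34). That of Hbb-bs was 0.72 (SE 0.48, 95% interval -0.37 to 1.80; edgeR adjusted p = 0.80; exact permutation p = 0.46). Leaving out HFD replicate 1 gave 0.12 and -0.0025 (edgeR adjusted p = 0.85 and 0.996).

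The split of reads between the near-identical globin copies is uncertain. The coding sequences of Hba-a1 and its copy Hba-a2 differ at 1 of 429 positions and those of Hbb-bs and Hbb-bt at 1 of 444. Hba-a2 ran from 10.9 to 52.9 CPM and Hbb-bt from 15.8 to 79.4 CPM, each also highest in HFD replicate 1. With the copies summed before the fit, the log2 fold change was 0.78 for the alpha pair and 0.77 for the beta pair, and neither was called (edgeR). The 4 adult globin genes summed to 263, 60.6, 61.8 and 94.1 CPM in HFD and to 57.0, 84.9, 82.8 and 55.8 CPM in CF. Alpha chains stood at 0.647 to 0.794 of beta chains in all 8 libraries, HFD replicate 1 included at 0.692.

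The carbonic anhydrases ranked the libraries differently from the globins. Car1, on chromosome 3 from 14766216 to 14808368, an isozyme typical of red cells, was at 68.2, 19.0, 5.35 and 5.56 CPM in HFD and at 4.57, 8.33, 7.62 and 11.3 CPM in CF. HFD replicate 2 came second and HFD replicates 3 and 4 lay below all CF libraries but replicate 1. Car1 had a log2 fold change of 1.62 (SE 0.80, 95% interval -0.20 to 3.44; edgeR adjusted p = 0.67; exact permutation p = 0.40), and 0.32 without HFD replicate 1 (edgeR adjusted p = 0.80). Car2, on the opposite strand of the same chromosome from 14886273 to 14900770, is also used outside the red cell lineage, in osteoclasts and kidney among others. It was at 186, 40.9, 18.3 and 24.8 CPM in HFD and at 22.0, 38.2, 34.2 and 30.2 CPM in CF. Here too HFD replicate 2 came second, and HFD replicate 3 was the lowest of the 8. The log2 fold change was 1.11 (SE 0.69, 95% interval -0.46 to 2.69; edgeR adjusted p = 0.77; exact permutation p = 0.74), and -0.15 without HFD replicate 1 (edgeR adjusted p = 0.83).

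Slc4a1, on chromosome 11 from 102348824 to 102366203, exchanges chloride for bicarbonate and anchors the red cell skeleton. It had the most counts of the 9 genes, 882 to 7649 per library. Its level was 245, 56.7, 31.0 and 38.2 CPM in HFD and 22.8, 40.4, 55.0 and 37.4 CPM in CF. HFD replicate 2 and CF replicate 3 were nearly level behind HFD replicate 1, and CF replicate 1 was lowest. Its log2 fold change was 1.25 (SE 0.66, 95% interval -0.25 to 2.76; edgeR adjusted p = 0.71; exact permutation p = 0.40), and 0.11 without HFD replicate 1 (edgeR adjusted p = 0.89).

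**Figure D1:**
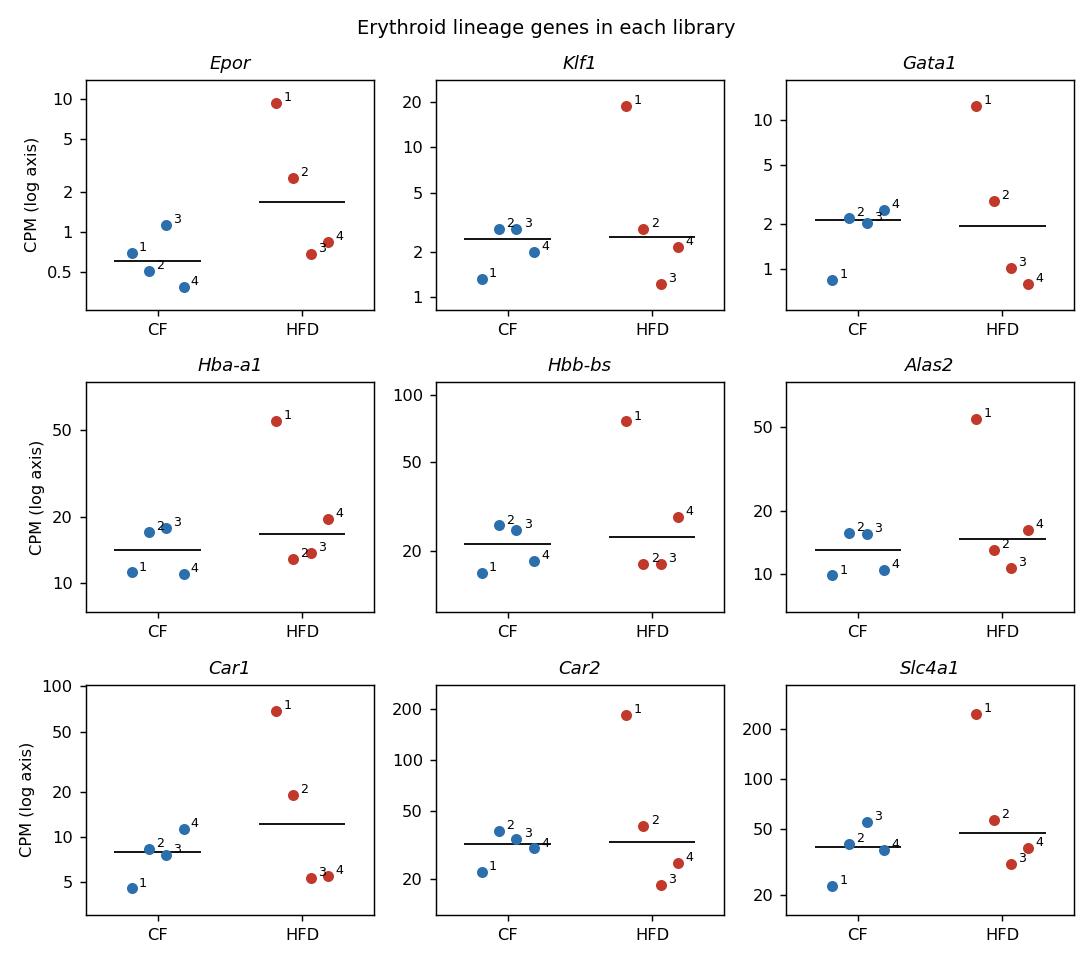
CPM of each of the 9 genes in each library (log axis), with numbers giving the replicate and horizontal lines the median of each diet (n = 4 per diet). HFD replicate 1 is the highest point in all 9 panels, and HFD replicates 2 to 4 overlap the CF libraries in each.

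Counted over the 9 genes, 0 were called by edgeR, against 0.423% of all genes tested. DESeq2 also called 0 of 9, against 3.58% of all genes, and limma voom 0 of 9, against 0.442%. At an unadjusted p below 0.05, edgeR had 1 of 9 (8.56% of all genes), DESeq2 2 of 9 (9.31%) and voom 0 of 9 (8.93%). The exact tests, 9 in all, can reach 0.029 at the lowest, and none of the 9 did, since the diets overlapped for every gene. All 9 genes were highest in HFD replicate 1, as were 26.5% of all genes tested. All 9 were there at least 2 times as high as in the next library, as were 4.00% of all genes, a limit chosen after the values were seen. The ratio to the next library ran from 2.67 for Hbb-bs to 6.59 for Klf1. The library in second place was HFD replicate 2 for Epor, Gata1, Car1, Car2 and Slc4a1, HFD replicate 4 for Hba-a1, Hbb-bs and Alas2, and CF replicate 3 for Klf1. Without HFD replicate 1, HFD replicates 2 to 4 still overlapped CF for all 9 genes. The share of all genes whose diets overlap is not given here, so the overlap describes these 9 alone. Without that library edgeR called 0 of the 9 (1.26% of all genes) and found 0 at an unadjusted p below 0.05 (14.6% of all genes).

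**Figure D2:**
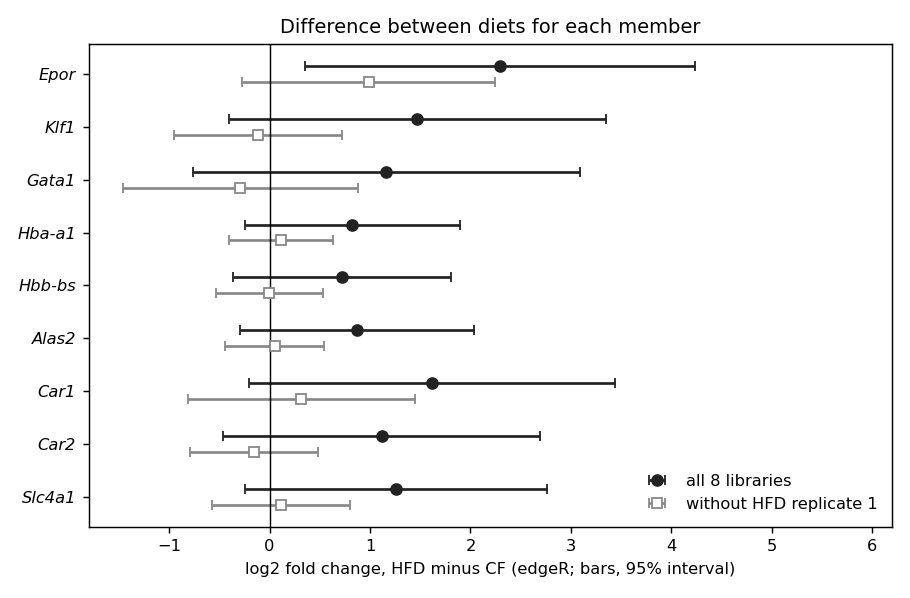
Log2 fold change of HFD over CF for each gene from edgeR, with 95% intervals, from all 8 libraries (filled circles) and without HFD replicate 1 (open squares). With all 8 libraries every value is above 0 and only the interval of Epor excludes 0; without HFD replicate 1 the values lie between -0.29 (Gata1) and 0.99 (Epor) and every interval includes 0.

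Per length of exon, the median over the other 7 libraries was highest for Hbb-bs, at 23.6 CPM per kb, followed by Hba-a1 at 17.0 and Car2 at 12.5. Slc4a1 at 7.82, Car1 at 6.11 and Alas2 at 5.45 CPM per kb formed a middle range. Klf1 at 1.41, Gata1 at 0.840 and Epor at 0.351 CPM per kb were lowest. In HFD replicate 1 the globin stayed first and the receptor last, at 99.3 CPM per kb for Hbb-bs and 4.70 for Epor, while Car2 at 76.7 CPM per kb came above Hba-a1 at 67.5. Hba-a2, the near-identical copy of Hba-a1, was at 79.3 CPM per kb in that library. As the split of reads between the copies is uncertain, so is the place of Hba-a1 relative to Car2. These levels are given as an order, and the ranges of neighbours such as Car1 and Alas2 overlapped between libraries.

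Over all 8 libraries the members varied together. The 36 pairs had Pearson's r of log2 CPM from 0.72 to 0.99 (median 0.91) and Spearman's rho from 0.024 to 0.95 (median 0.61). An exact permutation test over the 40320 pairings, adjusted over the 36 pairs, gave a p below 0.05 for r in 25 pairs and for rho in 7. With the mean of each diet removed, r was 0.69 to 0.99. Leaving out the 2 libraries farthest from the median of the first gene of each pair gave r of -0.53 to 0.97. With HFD replicate 1 left out, r ran from -0.22 to 0.94 (median 0.51), rho from -0.46 to 0.93, and 0 of 36 pairs passed by r or by rho (exact permutation over 5040 pairings). The calls over 8 libraries thus rested on that library, although several pairs kept a high r.

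In the other 7 libraries the genes fell into blocks, which were picked out after the values were seen and are described without a test. Hba-a1, Hbb-bs and Alas2 kept r of 0.92 to 0.94 with each other. Klf1, Gata1, Car1, Car2 and Slc4a1 had r of 0.66 to 0.94 among themselves, highest for Klf1 with Car2. The 15 pairs across these blocks had r of -0.22 to 0.78, lowest for Gata1 and Car1 with the 2 globins (-0.22 to -0.03) and highest for Klf1 with Alas2, so the blocks overlapped. Epor joined neither block closely, with r of -0.07 to 0.59.

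**Figure D3:**
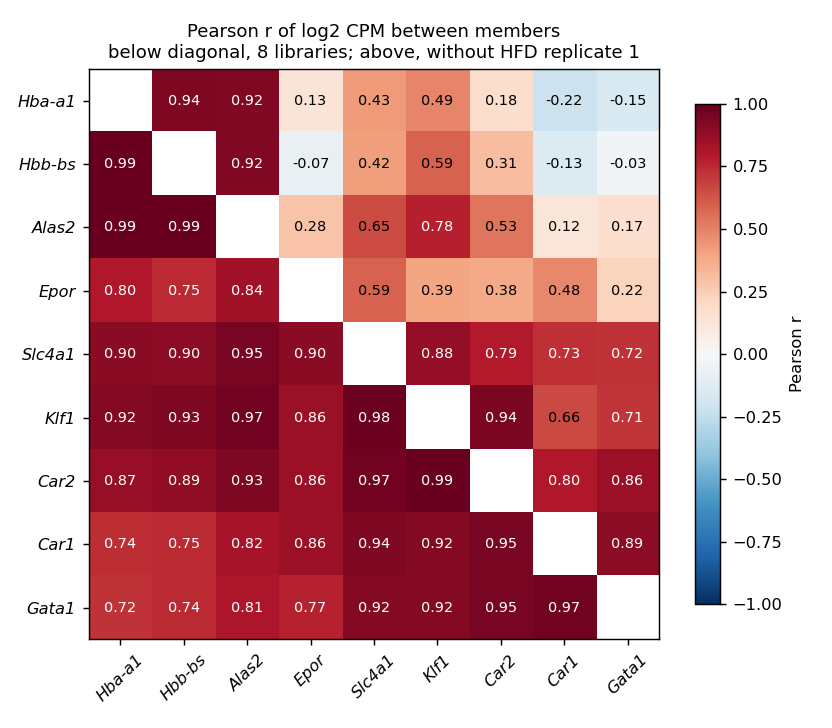
Pearson's r of log2 CPM for each pair of the 9 genes, over 8 libraries below the diagonal and over 7 libraries without HFD replicate 1 above it. Below the diagonal all values are at least 0.72; above it the globins and Alas2 form a block of 0.92 to 0.94 and their values with Car1 and Gata1 lie near 0.

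Ratios to Hbb-bs within each library restate the same values. Car1 stood at 0.894, 1.08, 0.306 and 0.195 of Hbb-bs (ratio of CPM) in HFD replicates 1 to 4 and at 0.287, 0.320, 0.306 and 0.626 of it in CF. HFD replicates 1 and 2 were highest and HFD replicate 4 lowest, so the HFD libraries took both ends of the range. Gata1 over Hbb-bs gave 0.164, 0.165, 0.0585 and 0.0281 in HFD and 0.0536, 0.0854, 0.0823 and 0.139 in CF, again with HFD replicates 1 and 2 at the top and HFD replicate 4 at the bottom. Epor over Hbb-bs gave 0.122, 0.146, 0.0390 and 0.0298 in HFD and 0.0438, 0.0195, 0.0456 and 0.0215 in CF, with HFD replicates 1 and 2 at the top and CF replicate 2 at the bottom. HFD replicate 1 thus differed from HFD replicate 2 in the amount of erythroid RNA and was close to it in the ratio of Gata1 to globin. The megakaryocyte list, whose cells also use Gata1, was highest on average in the same libraries, at a mean log2 CPM of 3.27 in HFD replicate 1 and 1.46 in HFD replicate 2 against -1.10 to 0.89 in the other 6. The lists of mast cells, basophils and eosinophils, of neutrophils and of BM macrophages were also highest in HFD replicate 1. In each of them CF replicate 2 was above HFD replicate 2, at 2.39 against 1.86, 7.17 against 6.13 and 2.00 against 1.62. The part of any of these lists in the Gata1 values was not tested.

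**Figure D4:**
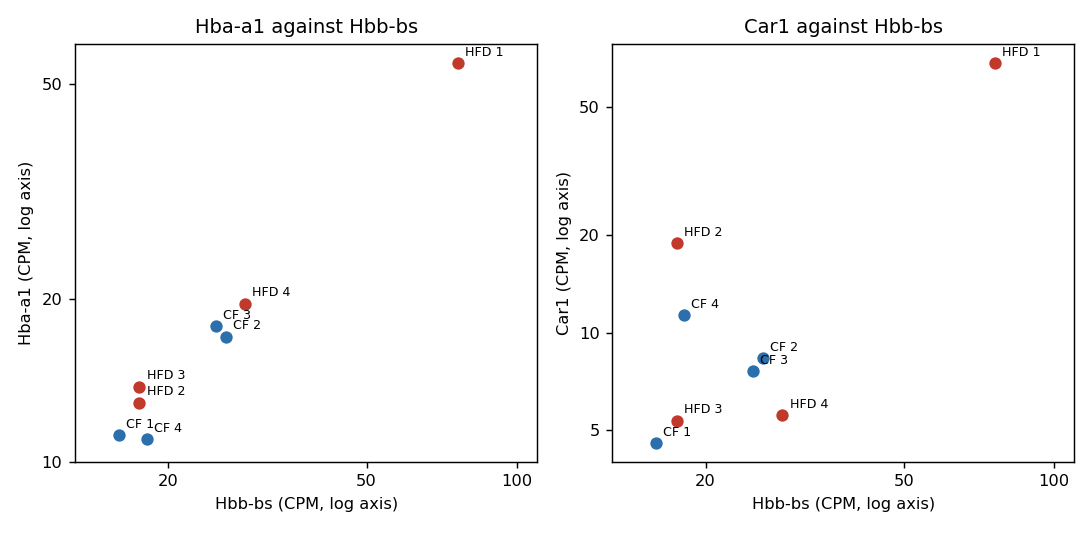
CPM of Hba-a1 (left) and Car1 (right) against CPM of Hbb-bs, one point per library, both axes on a log scale. Hba-a1 keeps to a line with Hbb-bs in all 8 libraries, whereas Car1 in HFD replicate 2 (19.0 CPM) is above HFD replicate 4 (5.56 CPM) although Hbb-bs is lower there (17.5 against 28.5 CPM).

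The wider pathway was read from 6 lists, of which 0 genes were called in either direction by edgeR with all 8 libraries (0.423% of all genes tested). In the red cell membrane and skeleton list, 23 of 24 genes were fitted as higher in HFD. On the log2 scale the median difference was 1.21 in the list and 0.055 over all genes tested, and limma voom gave 0.55 for the list. Its lowest p belonged to Slc14a1, the urea transporter (0.59, edgeR adjusted p = 0.28), and next to Tmod1, which caps actin filaments (2.53, edgeR adjusted p = 0.44). Without HFD replicate 1, 13 of 24 were higher and the median was 0.05. In that library 21 of 24 were highest and 15 were at least 2 times the next library.

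The globin list had 4 genes tested of 10 listed, all 4 fitted as higher, and their median log2 fold change was 0.78, or 0.04 without HFD replicate 1. In the heme synthesis list 18 of 19 genes were higher, with a median of 0.25, and 8 of 19 without HFD replicate 1, with a median of -0.05. Abcb10, a mitochondrial transporter, had the lowest p of those outside the 9 (0.78, edgeR adjusted p = 0.67). The list of erythroid enzymes and maturation had 24 of 25 higher with a median of 0.62, led by Hebp1, a heme-binding protein (1.33), and Hemgn, a nuclear protein of blood precursors (1.39), both at an edgeR adjusted p of 0.60. Without HFD replicate 1, 14 of 25 were higher with a median of 0.05, and 1 gene was called, Ftl1, the ferritin light chain that stores iron (edgeR, 1.26% of all genes called). Ftl1 was named for this call. It fell by 1.12 on the log2 scale in HFD there (edgeR adjusted p = 0.018), and with all 8 libraries its value was -0.57 (edgeR adjusted p = 0.78).

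Among the transcription factors 16 of 22 were higher (median log2 fold change 0.12), and 10 of 22 (median -0.01) without HFD replicate 1. Gfi1b, a repressor of erythroid and megakaryocyte precursors (0.93, edgeR adjusted p = 0.74), and Zfpm1, the partner of Gata1 known as FOG1 (0.60, edgeR adjusted p = 0.80), had the lowest p of those outside the 9. In the list of EPO receptor signalling, which DC progenitors share with many blood cells, 14 of 20 were higher with a median of 0.11, and 13 of 20 with a median of 0.07 without HFD replicate 1. Its lowest p values were those of the feedback inhibitor Socs2 (-1.46, edgeR adjusted p = 0.16) and the kinase Pim1 (0.46, edgeR adjusted p = 0.26). Only 1 of these 20, Epor itself, was at least 2 times as high in HFD replicate 1 as in the next library. Tfrc, the transferrin receptor through which cells take up iron, was at 257, 254, 203 and 232 CPM in HFD and at 173, 137, 150 and 143 CPM in CF. The diets did not overlap for Tfrc, yet it missed the threshold with a log2 fold change of 0.65 (SE 0.12, edgeR adjusted p = 0.075), and its value without HFD replicate 1 was 0.61 (edgeR adjusted p = 0.064).

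Genes of other cells moved with the members in HFD replicate 1. The median ratio of that library to the median of the other 7 was 11.3 over 11 megakaryocyte genes tested, all 11 highest there. Ppbp, a platelet chemokine, was at 32.4 CPM against 0 to 5.29 CPM elsewhere, and Itgb3, the integrin of platelets, at 56.2 against 7.77 to 25.7 CPM. The ratio was 6.64 over 14 neutrophil genes, all 14 highest there, with S100a8 at 5155 CPM against 245 to 1778 CPM and S100a9 at 5110 against 283 to 1915 CPM. For mast cells, basophils and eosinophils 10 of 11 genes were highest there with a ratio of 3.98, Hdc being at 104 CPM against 3.64 to 56.1 and Prss34 at 31.2 against 3.81 to 27.2. For BM macrophages 10 of 11 were highest there with a ratio of 5.03, with the iron exporter Slc40a1 at 72.9 CPM against 3.81 to 26.6 and Cd163 as the exception, lowest there at 9.92 against 22.2 to 29.7 CPM. In the list of DC progenitor and sort gate genes the ratio was 0.854 and 2 of 15 were highest there, and Irf8, a factor that DC progenitors require, was at 251 CPM against 372 to 674 CPM. The part of these cells in the erythroid levels was not tested.

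In the other 7 libraries the neutrophil genes ran with some members and not with others. Summed over the list they were at 19922, 3485, 1260 and 942 CPM in HFD and at 1926, 6466, 6017 and 5890 CPM in CF. The low libraries were HFD replicates 3 and 4 and CF replicate 1, which were also the lowest for Gata1, Car1 and Car2. HFD replicate 4, with the lowest neutrophil sum and the lowest Gata1, was second for the globins and Alas2. With HFD replicate 1 left out, all 14 neutrophil genes were lower in HFD (median log2 fold change -1.48, 0 called by edgeR), and the members had both signs. The part of these cells in the Gata1, Car1 and Car2 values was not tested.

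**Figure D5:**
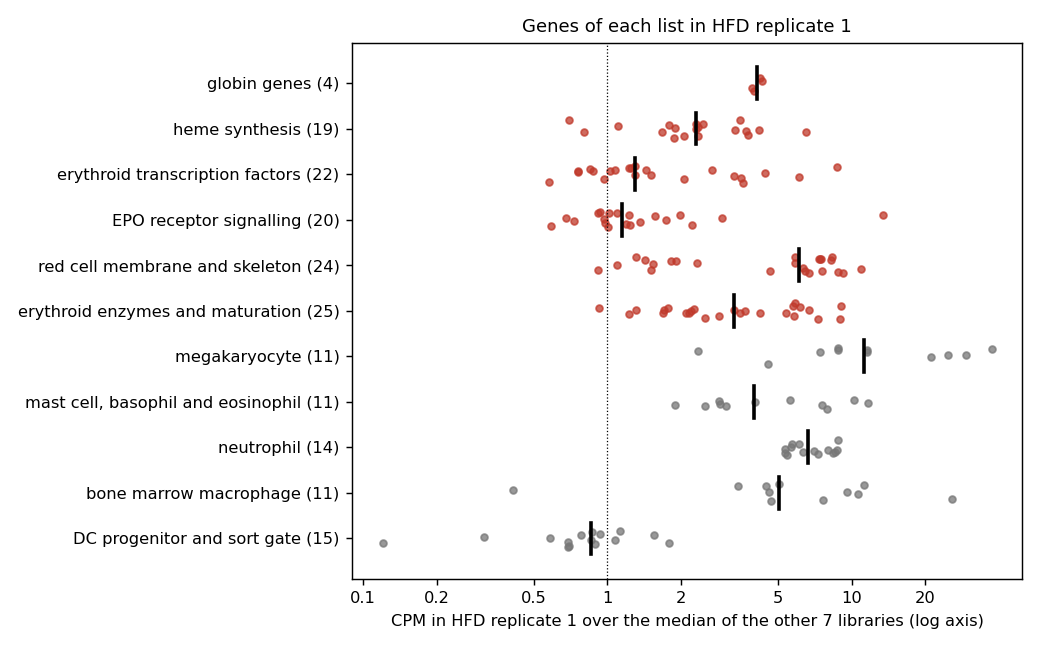
Ratio of CPM in HFD replicate 1 to the median of the other 7 libraries for each gene tested of each list (log axis), erythroid lists in red and lists of other cells in grey, with the median of each list as a black bar and the number of genes in brackets. The median is highest in the megakaryocyte list (11.3), followed by the neutrophil (6.64) and membrane (6.08) lists, and the DC progenitor and sort gate list (0.854) lies around 1.

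Among 11064 protein-coding genes with a mean of at least 1 CPM, the 10 most like the members were chosen by Pearson's r with the mean standardised log2 CPM of the 9 over 8 libraries. They included Nxpe2, Atp2a3, Ccdc71l, Pdzd8, Epb42, Aqp1, Fam217b and Fermt3, with r from 0.991 to 0.985. Of these, Epb42 (a band 3 binding protein of the membrane) and Aqp1 (the water channel) belong to the erythroid lists. Nxpe2 was at 30.5 CPM in HFD replicate 1 against 2.91 to 6.73 CPM elsewhere, whereas Pdzd8 was at 138 against 89.3 to 101 CPM, so a like pattern went with unlike sizes. Among the 100 most like genes, 18 were in an erythroid list, as were 0.913% of all candidates. When likeness was taken without HFD replicate 1, a choice made after seeing the data, 18 of the 100 most like genes were shared with the first 100, and Epb42 (r = 0.975) and Atp2a3 (r = 0.962) were among the first 10 both times.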

How the data were processed

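The deposited table held whole-number counts per gene for 8 libraries. According to the study's methods, the authors aligned paired reads with HISAT2, kept uniquely mapped pairs and counted them with StringTie on GENCODE genes. The submitters' processing notes also name FastQC, cutadapt and GRCm38, and the strand setting is not given in the sources used here. Keeping uniquely mapped pairs drops reads that fit both near-identical globin copies, and reads without molecular identifiers are not independent molecules.

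Names, coordinates and exon lengths came from GENCODE vM21, in which 16067 of 16119 genes were found. In R 4.3.3, edgeR 4.0.16 was run with filterByExpr (282 genes left out), TMM and a robust quasi-likelihood fit with diet as the only term. Benjamini-Hochberg adjustment covered the 15837 genes tested, with a threshold of 0.05. CPM used TMM-scaled library sizes (factors 0.80 to 1.18), and log2 values were taken with a prior count of 2. Each member was also compared by an exact two-sided permutation test on all 70 draws of 4 of 8 libraries. A ratio of libraries in a list added 0.01 CPM to both values. Globin coding sequences were taken as the longest open reading frames of GENCODE transcripts.

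The members and lists were chosen with earlier results of these data known. Genes named are the 9 members, Hba-a2, Hbb-bt, Tfrc, the 2 others of each erythroid list with the lowest p, the 2 most abundant of each list of other cells and the 10 most like the members. Flt3, Csf1r, Kit, Apex2 and Ftl1 were added with their values seen, and Epb42 and Aqp1 are named by likeness. Some genes that this rule names are not reported here. Alternatives were RLE factors, library size alone, DESeq2 1.42.0, voom of limma 3.58.1, other filters, protein-coding genes alone, globin copies summed, the replicate number as a block and libraries left out. The fit was also run on counts simulated with known changes, and the outcome of that run is not reported here. Python 3.11.15 and matplotlib 3.10.9 served for the joins and figures.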

Additional observations from a re-analysis of the deposited data

Results flagged for a closer look

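In the list of EPO receptor signalling, HFD replicate 1 lay far above the rest of its diet, with a mean log2 CPM of 4.449 against 4.017 to 4.045 in HFD replicates 2 to 4. In the neutrophil list, CF replicate 1 lay far below the rest of its diet, with a mean log2 CPM of 5.613 against 7.165 to 7.236. The search covered 40 groups of 4 and found these 2, where chance gives about 1 in 20. None of the 9 members passed the same limit in HFD, where replicate 1 was far above but replicates 2 to 4 were spread.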

How the results depend on the processing

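None of the 9 members was called under any of the 18 other settings tried for the fit. In several of these no gene at all was called, so the members could not stand out there. These were protein-coding genes alone, the replicate block, and HFD replicate 3 or CF replicate 1, 2 or 3 left out. The number of genes called was 67, and became 108 with library size alone, 567 with DESeq2, 0 with protein-coding genes alone, 388 with both replicates 1 left out and 0 to 200 with single libraries left out. Pairs of members that passed numbered 25, and 0 to 29 with single libraries left out, 0 without HFD replicate 1 and 15 without CF replicate 1. With single libraries left out, log2 fold changes ran from -0.12 to 1.81 for Klf1, from -0.29 to 1.49 for Gata1, from -0.0025 to 0.94 for Hbb-bs and from -0.15 to 1.43 for Car2, each turning without HFD replicate 1. With both replicates 1 left out they were -0.31 for Klf1, -0.54 for Gata1, -0.12 for Hbb-bs, -0.059 for Alas2, -0.29 for Car2 and -0.078 for Slc4a1. The remaining members stayed above 0 in that setting, with Epor at 0.999, Car1 at 0.12 and Hba-a1 at 0.014. As differences of mean log2 CPM without HFD replicate 1, chosen after seeing the data, TMM gave -0.13 for Klf1, -0.39 for Gata1, -0.014 for Hbb-bs and -0.20 for Car2, and library size alone gave 0.10, -0.16, 0.22 and 0.03, with the other 5 above 0 in both and the median of all genes at 0.03 and 0.27. The cause of these turns was not tested. Library size alone moved the median log2 fold change of all genes from 0.055 to 0.25. A filter of 1 CPM in 4 libraries left Epor out.

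Replicate numbers did not pair the libraries. Deviations of same-numbered libraries correlated at -0.44, -0.08, -0.23 and -0.18, and no library matched best with its own number. With the replicate block, 0 genes were called in all and 0 members. The block and voom gave smaller values, 0.52 and 0.63 for Klf1, 0.21 and 0.31 for Gata1, and 1.66 and 1.502 for Epor. They gave 0.75 and 0.82 for Car1, 0.38 and 0.49 for Car2, and 0.66 and 0.79 for Slc4a1. For Alas2 they gave 0.53 and 0.57, for Hba-a1 0.56 and 0.59, and for Hbb-bs 0.43 and 0.46. Voom, the block and leaving out both replicates 1 gave list medians of 0.55, 0.42 and -0.17 for the membrane, 0.52, 0.49 and -0.03 for globins, 0.32, 0.32 and -0.08 for enzymes, 0.15, 0.15 and -0.14 for heme synthesis and 0.07, 0.07 and -0.03 for transcription factors. For EPO receptor signalling the same settings gave 0.10, 0.10 and 0.11. Counts of 15 to 36 for Epor in 6 libraries limit its precision.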
